A study of Mus musculus with 4 samples.

Results

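Epi-NMP was compared here with Epi-CE-T, a pair of cell populations made from mouse epiblast stem cells (EpiSCs), the cultured counterpart of the late epiblast. The values are single-cell counts of unique molecular identifiers (UMIs), which count captured RNA molecules. Cells were the barcodes that the deposited cell table marks TRUE: 1111 of 2624 in Epi-NMP and 2109 of 2201 in Epi-CE-T, or 3220 of the 10579 barcodes of the whole series. The libraries Epi-CE and ES-NMP of the same series are quoted for their levels alone.

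The EpiSCs were kept in FGF2 at 12 ng/ml and activin A at 25 ng/ml. For Epi-CE, labelled as a caudal epiblast-like culture, activin was withdrawn, FGF2 was raised to 20 ng/ml, and Chiron, a GSK3 inhibitor that activates WNT signalling, was added at 3 µM. Epi-CE-T came from a Bra:GFP line, in which GFP reports the Brachyury gene T, put through those steps, and its GFP-positive cells were sorted at 72 h. For Epi-NMP the starting point was Epi-CE cells, which were detached with Accutase, reseeded on fibronectin and grown for 2 more days in FGF2 at 20 ng/ml with Chiron at 3 µM, with no sort. ES-NMP was made from embryonic stem cells with Chiron at 3 µM. All libraries carry the strain label E14Tg2a, and 8700 cells were loaded for each. There was 1 library a side, so no difference has a replicate check, and culture time, replating, the sort, the reporter line and the library itself cannot be told apart.

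The node and notochord form the midline of the embryo beneath the neural tube, express T and Foxa2, and secrete Sonic hedgehog and the BMP antagonists Chordin and Noggin. Neuromesodermal progenitors (NMPs) lie beside the node in the caudal epiblast, co-express T and Sox2 under WNT and FGF signalling, and are the source of spinal cord as well as paraxial mesoderm. As the trunk grows, caudal progenitors switch on Hox genes in the order in which they lie in their clusters, with Cdx factors acting upstream of the trunk members.

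The cells of both libraries had like depth. The median cell held 19252 UMIs and 4209 genes in Epi-NMP and 19189 UMIs and 4278 genes in Epi-CE-T, with 2.61% and 2.67% mitochondrial UMIs. The summed totals were 22261452 and 44990488 UMIs, and the libraries shared 1 cell barcode. In Epi-NMP 57.7% of barcodes were marked FALSE (median 4720 UMIs), against 4.18% in Epi-CE-T. Levels are summed UMIs per 1000000 (CPM). The 95% intervals in parentheses are exact and cover counting error only. Shares of cells come from cells thinned to 8000 UMIs each, which left out no TRUE cell. No doublet caller was run and no cells were removed as doublets.

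Several values went against the labels. T stood at 382.1 CPM in sorted Epi-CE-T and 430.5 CPM in unsorted Epi-CE, and a T UMI was found in 74.2% of Epi-CE-T cells against 78.9% of Epi-CE cells. Although labelled from the caudal epiblast protocol, Epi-CE-T held little of the caudal epiblast markers Nkx1-2 (12.6 CPM, against 181.6 in Epi-CE), Cdx2 (4.67 against 122.0) and Fgf8 (4.69 against 95.8). Hprt, on chromosome X (52988137 to 53021659, GRCm38), encodes a purine salvage enzyme that the E14Tg2a line is known to lack. Its level was 0.943 CPM in Epi-NMP and 0.801 CPM in Epi-CE, but 137.8 CPM in Epi-CE-T and 203.9 CPM in ES-NMP. Hprt was thus 146-fold lower in Epi-NMP than in Epi-CE-T (95.5 to 236.1), with a UMI in 0.810% of Epi-NMP cells and 60.9% of Epi-CE-T cells. Whether the lines differ, and the part of that in the other differences, was not tested. Noto, the defining transcription factor of the mouse node, was near 0 in both: 0.244 CPM on 11 UMIs in Epi-CE-T and 1.48 CPM on 33 UMIs in Epi-NMP.

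The Epi-NMP cells carried trunk Hox genes, Cdx2 and Hes7, which were scarce in Epi-CE-T, while Epi-CE-T was higher in Shh, keratins, glycolytic enzymes and Pomc. Of 12416 tested genes, those with 50 or more UMIs summed over the pair, 849 (6.84%) were at least 2-fold higher in Epi-NMP and 2206 (17.8%) at least 2-fold lower. The median log2 ratio of all tested genes was -0.08. Ranked among genes with 200 or more summed UMIs and a level of 50 CPM in either library, the 15 highest held 9 Hox genes or Hox cluster transcripts beside Cdx2, Hes7, Fgf8, Wnt6, Lef1 and Lmo2. The 15 lowest began with Pomc, Hprt and Aldoc. "Higher" and "lower" below refer to Epi-NMP relative to Epi-CE-T, at 2-fold or more wherever genes are counted.

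**Figure D1:**
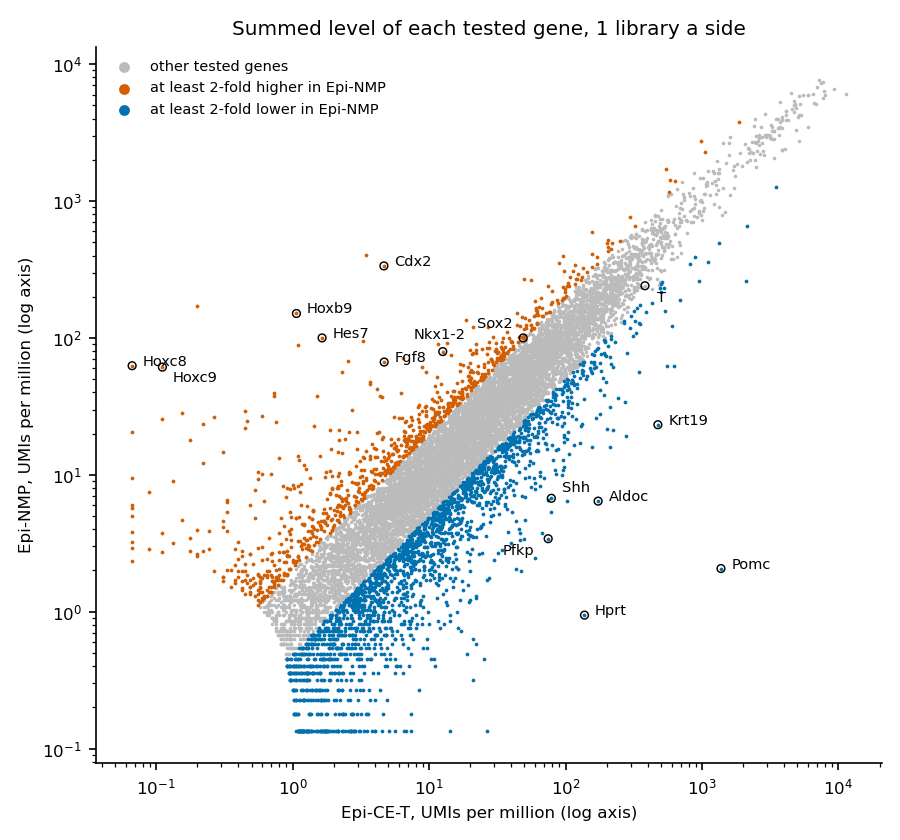
Level of each of the 12416 tested genes in Epi-CE-T (x) and Epi-NMP (y), in CPM on log axes, with genes at least 2-fold higher in orange (849) and lower in blue (2206). Levels under 3 UMIs are drawn at the level of 3 UMIs, circles mark named genes, and Hoxc8, Hoxc9, Cdx2 and Hes7 stand far above the diagonal while Pomc, Hprt and Aldoc stand far below it.

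Regulators of the node and notochord were lower as a group. Of 8 measured members, 7 were lower and none higher, with a median log2 ratio of -1.92. Noto, which was higher, fell under the UMI minimum. With no minimum 7 of 9 were lower and 1 higher (median -1.76). Shh, the hedgehog ligand, lies on chromosome 5 (28456815 to 28467256, minus strand) and stood at 78.7 CPM in Epi-CE-T and 6.74 in Epi-NMP, an 11.7-fold difference (9.92 to 13.9). It was found in 38.9% of Epi-CE-T cells and 3.69% of Epi-NMP cells, against 2.47% in Epi-CE, so a high Shh share set Epi-CE-T apart from both other EpiSC-derived libraries. Foxj1, the master factor of motile cilia, was 10.8-fold lower (6.42 to 19.4), from 7.25 to 0.674 CPM. Gsc, an organizer transcription factor, was 4.92-fold lower. The BMP antagonists Chrd and Nog were 4.19-fold and 3.40-fold lower, from 71.1 to 17.0 and from 42.1 to 12.4 CPM. The forkhead factors Foxa2 and Foxa1 differed least among the called members, at 2.25-fold and 2.23-fold. Among cells with a T UMI neither was called (1.53-fold and 1.75-fold lower), which left 5 of 8 members lower. Dand5, a Nodal antagonist of the node's edge, was 1.61-fold lower and so was not called.

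Genes of the notochord's matrix and surface went the same way, with 8 of 12 measured lower, none higher and a median of -1.84. The keratins Krt8, Krt18 and Krt19 of this list also stand in the epithelial list below. Col9a3, a cartilage and notochord collagen, stood at 5.78 CPM in Epi-CE-T and 0.404 in Epi-NMP, or 14.3-fold lower (9.45-fold among the 1565 Epi-CE-T and 586 Epi-NMP cells with a T UMI after thinning). Col2a1, the main collagen of the notochord sheath, was 7.87-fold lower (64.7 to 8.22 CPM), and its regulator Sox9 was 2.77-fold lower. Cd24a, a surface protein of notochord and epithelia, ran against the group and was 1.69-fold higher. Among motile cilium genes 4 of 6 measured members were lower and none higher (median -1.33). This depended on the UMI minimum: without it 4 of 11 were lower and 2 higher (median -0.25). Over all barcodes 3 of 6 were lower. The lower members include Pkd1l1, a flow-sensing channel of the node, at 12.0 CPM in Epi-CE-T and 0.764 in Epi-NMP. Pifo, a primary cilium protein, rested on 171 and 2 UMIs and was 42.3-fold lower (11.5 to 352.1), or 19.2-fold with every cell weighing the same and 21.4-fold among cells with a T UMI (5.81 to 178.9).

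Pomc, the precursor of the peptide hormone ACTH, had the largest ratio of the ranked lower genes. It lies on chromosome 12 (3954951 to 3960642, plus strand) and stood at 1378 CPM in Epi-CE-T, 2.07 in Epi-NMP, 18.1 in Epi-CE and 3.30 in ES-NMP. It was thus 667-fold lower in Epi-NMP (499.9 to 910.9). A Pomc UMI was found in 38.4% of Epi-CE-T cells and 1.26% of Epi-NMP cells. The Epi-CE-T total was carried by few cells: the median thinned cell held 0 Pomc UMIs, the 90th percentile 36, the highest cell 466, and the top 10% of cells held 84.8% of the UMIs. Spp1, the secreted protein osteopontin, was still more concentrated, with 99.2% of its Epi-CE-T UMIs in the top 10% of cells. Spp1 was 11.4-fold lower, and 32.6-fold lower among cells with a T UMI. Lmx1a, a LIM homeobox factor of roof plate and ventral midbrain, was spread more evenly. It stood at 67.0 CPM in Epi-CE-T and 3.77 in Epi-NMP (17.8-fold lower, 14.3 to 22.3), with a UMI in 38.5% and 3.87% of cells.

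The hedgehog pathway did not follow its ligand. Of 10 measured members 4 were higher and 1 lower, with a median of 0.48. Ptch1, the receptor and a known transcriptional target of the pathway, stood at 54.6 CPM in Epi-CE-T and 53.5 in Epi-NMP, a ratio of 1.02-fold lower whose interval spans no difference (0.953 to 1.10). Gli3, mainly a repressor, was 2.65-fold higher. Cdon, a co-receptor for hedgehog ligands, was the lower member at 3.9-fold. Of 10 definitive endoderm genes 5 were lower and 1 higher (median -0.66). Among the lower genes, Foxa1 also stands in the node list. The endoderm-defining factor Sox17 was low in both libraries (1.20 and 1.08 CPM), and 2.88-fold lower in cells of middling depth. Trh, the precursor of thyrotropin-releasing hormone, stood at 19 CPM in Epi-CE-T and 0.494 in Epi-NMP, 38.4-fold lower (24.7-fold over all barcodes). Cer1, a secreted Nodal and WNT antagonist, had 96 UMIs in Epi-CE-T and none in Epi-NMP, and was at least 15.8-fold lower against a floor of 3 UMIs in that library (at least 9.64-fold among cells with a T UMI). Cxcr4, a chemokine receptor, was 8.08-fold higher.

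Caudal epiblast and NMP genes were higher together. Of 18 measured members 15 were higher and 1 lower, and the median log2 ratio was 2.90. The T and Sox2 pair differed in direction: T was 1.59-fold lower (1.54 to 1.64), at 240.6 CPM in Epi-NMP, while Sox2 was 2.04-fold higher (1.92 to 2.17), at 99.99 CPM against 49.0, and 1.83-fold over all barcodes. Cdx2, the caudal homeobox factor on chromosome 5 (147300805 to 147307270, minus strand), stood at 336.0 CPM in Epi-NMP and 4.67 in Epi-CE-T, 72.0-fold higher (62.8 to 83.0). In cells of middling depth (the 10th to 90th UMI percentile of their library) the Cdx2 ratio was 111-fold. A Cdx2 UMI was found in 67.6% of Epi-NMP cells and 1.19% of Epi-CE-T cells. Its paralogue Cdx1 was 8.81-fold higher. Nkx1-2, a caudal epiblast homeobox factor, was 6.31-fold higher (5.74 to 6.95), at 79.5 against 12.6 CPM, and 10.7-fold higher among cells with a T UMI. Epi-CE, from which Epi-NMP was grown, had a higher Nkx1-2 level than either.

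Ligands and streak factors of this region followed the caudal factors. Fgf8, the main caudal FGF ligand, stood at 66.7 CPM in Epi-NMP and 4.69 in Epi-CE-T, 14.2-fold higher (21.6-fold among cells with a T UMI). Wnt3a, which maintains NMPs, was 13.3-fold higher at 4.13 CPM (25.2-fold with equal cell weights, 31.1-fold in cells of middling depth). Evx1, a homeobox factor of the posterior streak, was 14.6-fold higher. Epha5, an ephrin receptor of the caudal list, was 53.3-fold higher (34.5 to 86.8), or 34.4-fold among cells with a T UMI. Wnt8a was the exception, at 2.43 CPM in Epi-NMP and 15.7 in Epi-CE-T, 6.46-fold lower, but 1.90-fold and not called among cells with a T UMI. In the primitive streak list 9 of 13 measured members were higher and 2 lower (median 1.07). Mixl1, a streak homeobox factor, was 14.5-fold higher, 26.8-fold among cells with a T UMI. Fgf4, an early streak ligand, had 72 UMIs in Epi-NMP and none in Epi-CE-T, at least 48.5-fold higher against the floor of 3 UMIs. Over all barcodes Epi-CE-T had 1 Fgf4 UMI, and the ratio was 145-fold (25.3 to 5773).

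Hox genes gave the widest contrast. Every measured member was higher: 11 of 11 in groups 1 to 4 (median log2 ratio 3.89), 14 of 14 in groups 5 to 9 (6.49) and 4 of 4 in groups 10 to 13 (4.86). Since a gene near 0 in Epi-CE-T passed the UMI minimum through Epi-NMP alone, these counts leave out members low in both, among them 8 of the 12 genes of groups 10 to 13. Hoxc8, on chromosome 15 (102990607 to 102994111, plus strand), had 2 UMIs in all of Epi-CE-T and 1395 in Epi-NMP (62.7 CPM). Its ratio of 1409.7-fold has an interval from 389.5 to 11651, and among cells with a T UMI it was 855-fold (235.7 to 7078). A Hoxc8 UMI was found in 27.1% of Epi-NMP cells and 0.0474% of Epi-CE-T cells. Its neighbour Hoxc9 stood at 61.2 CPM against 0.111 (551-fold, 235.5 to 1699; 360-fold among cells with a T UMI). Hoxb9, at 150.9 CPM in Epi-NMP, was 141-fold higher (106.4 to 192.2) and 70.7-fold higher among cells with a T UMI.

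The ratios of other Hox genes varied along the series. In the anterior groups Hoxb2 was 29.1-fold higher and Hoxb4 24.5-fold. Hoxc10, of the lumbar groups, had 460 UMIs in Epi-NMP and 2 in Epi-CE-T, a ratio of 465-fold (128.0 to 3849.8), or 221-fold among cells with a T UMI (60.1 to 1841). Hoxd11 was 12.5-fold higher at 2.79 CPM. ES-NMP, which also carried trunk Hox genes, had Hoxb9 at 52.1 CPM and Hoxc10 at 0.531 CPM. The transcripts Hoxaas3 (116-fold) and Hoxb5os (853-fold; 564-fold among cells with a T UMI) are antisense to Hox genes. The use of strand in counting is not given in the sources used here, so their reads and those of their partners cannot be told apart.

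**Figure D2:**
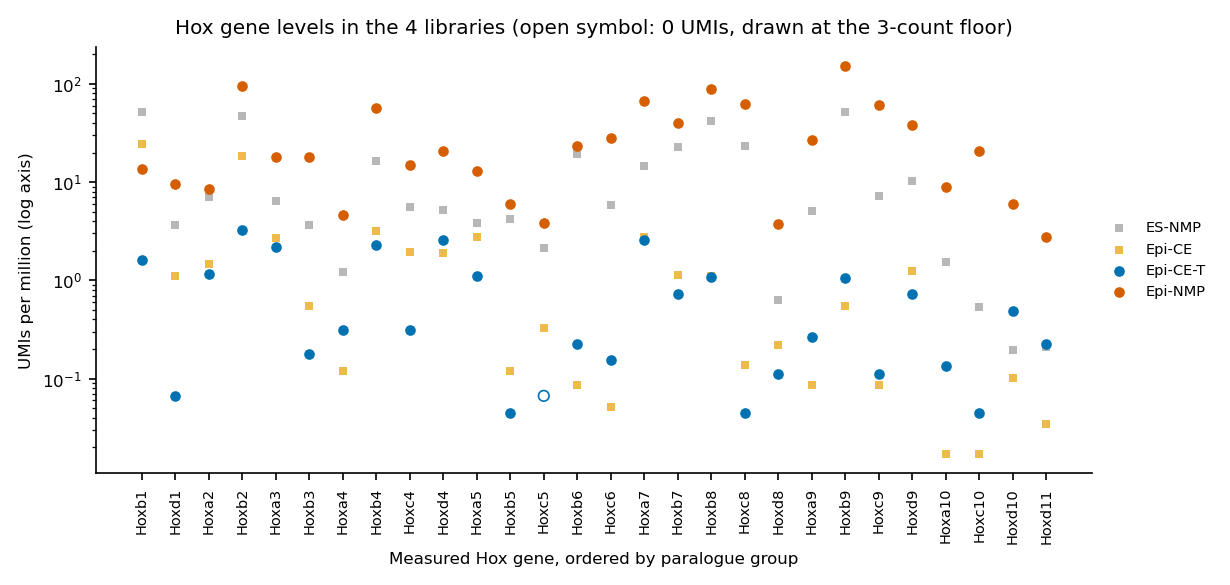
Level of measured Hox genes in the 4 libraries (CPM, log axis), ordered from paralogue group 1 to group 11. Epi-NMP (orange circles) lies above Epi-CE-T (blue circles) at every gene drawn, and the open circle marks Hoxc5, with 0 UMIs in Epi-CE-T.

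Paraxial mesoderm genes were higher in all 10 measured members of 17 (median 3.36). The other 7 had too few UMIs summed over the pair to reach the minimum. Members near 0 in Epi-CE-T, among them Meox1 and Foxc2, passed it mainly through Epi-NMP, so the count supports little by itself. With no minimum of UMIs 13 of 16 were higher and 1 lower (median 3.25). Meox1, a somite homeobox factor, stood at 27 CPM in Epi-NMP and 0.60 in Epi-CE-T, 44.9-fold higher (22.4-fold among cells with a T UMI), with a UMI in 7.83% and 0.379% of cells. Aldh1a2, the somitic enzyme that makes retinoic acid, was 49.2-fold higher (31.5 to 81.3), and 79.8-fold to 141-fold with equal cell weights, among cells with a T UMI and in cells of middling depth. Foxc2, a mesenchymal forkhead factor, rested on 104 and 7 UMIs. It was 30.0-fold higher, but 9.76-fold among cells with a T UMI and 83.6-fold in cells of middling depth, on 2 Epi-CE-T UMIs (22.5 to 701.8). Tbx6, which commits cells to paraxial mesoderm, was 8.77-fold higher at 8.0 CPM, and Tcf15 was 10.2-fold higher at 42.6 CPM. The segmentation clock repressor Hes7, on chromosome 11 (69120404 to 69124055, plus strand), was among the genes with the highest ratios outside the Hox clusters. It stood at 100.1 CPM in Epi-NMP and 1.64 in Epi-CE-T, 60.8-fold higher (48.3 to 77.8), and was found in 37.5% and 1.28% of cells.

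Other Notch and retinoid genes were less uniform. Of 12 Notch genes 5 were higher and none lower (median 0.53). The ligand Dll1 was 11.3-fold higher (18.3-fold among cells with a T UMI) and the glycosyltransferase Lfng 3.98-fold. Hes1, another Notch target, was level at 142.6 and 142.5 CPM, and the ligand Dll3 was 1.24-fold lower. Of 11 retinoic acid genes 6 were higher and none lower (median 1.14). Stra6, the retinol uptake receptor, stood at 47.9 CPM against 3.71 (12.9-fold higher), and Dhrs3, which turns retinaldehyde back to retinol, was 3.39-fold higher. Cyp26a1, which breaks retinoic acid down in the caudal epiblast, was 1.92-fold higher and so under the threshold.

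Neural progenitor genes split. Of 13 measured 6 were higher and 2 lower, with a median of 0.47. Ncam1, the neural cell adhesion molecule, was 5.77-fold higher (120.4 against 20.9 CPM), and Zic1, a dorsal neural zinc finger factor, was 65.9-fold higher (29.3 against 0.445 CPM). Neurog2, which drives neuronal differentiation, had 111 UMIs in Epi-NMP and 3 in Epi-CE-T, a ratio of 74.8-fold (24.9 to 368.1). Among cells with a T UMI Neurog2 had none in Epi-CE-T and was at least 21-fold higher, and in cells of middling depth, with 1 UMI there, the ratio was 149.6-fold (26.05 to 5984). The lower pair were Sox1, an early neural plate factor (0.719 against 3.29 CPM), and Nkx6-2, a ventral neural homeobox factor (0.359 against 1.96 CPM). Among cells with a T UMI neither was called and both ratios turned, to 1.09-fold higher for Sox1 (8 and 21 UMIs) and 1.43-fold for Nkx6-2 (4 and 8 UMIs).

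Pluripotency and Nodal genes were lower. In the core and primed list 8 of 14 measured members were lower and 2, one of them Sox2, higher, with a median of -1.97. Pou5f1, the central pluripotency factor, stood at 64.7 CPM in Epi-CE-T and 9.79 in Epi-NMP (6.61-fold lower, 2.74-fold among cells with a T UMI), against 426.1 in Epi-CE. Otx2, a factor of primed epiblast and anterior neural tissue, was 50.6-fold lower on 3 UMIs in Epi-NMP (17.2 to 246.9). It was at least 26.8-fold lower among cells with a T UMI. Nanog was 31.5-fold lower, on 6 UMIs in Epi-NMP, and 11.4-fold lower among cells with a T UMI, on 3 UMIs (3.78 to 56.1). Utf1, another primed-state gene, was 23.8-fold lower. Of 9 Nodal pathway genes 6 were lower and none higher (median -3.04, with 3 members at the bound of the UMI floor). Those 3 passed the UMI minimum through Epi-CE-T alone. With no minimum 8 of 12 were lower and 1 higher, and with a minimum of 200 UMIs 3 of 6 were lower and none higher. Lefty1, the secreted Nodal inhibitor, was 20.8-fold lower (43.0 to 2.07 CPM), 10.2-fold among cells with a T UMI. Tdgf1, the Nodal co-receptor, had 116 UMIs in Epi-CE-T and none in Epi-NMP, at least 19.1-fold lower (at least 6.04-fold among cells with a T UMI). Over all barcodes Epi-NMP had 1 Tdgf1 UMI, and the gene was 77.3-fold lower (13.6 to 3080). The ligand gene Nodal itself was 1.39-fold lower, at 3.68 against 5.13 CPM. Both medians moved by more than 1.5 times with the choice of cells. Among cells with a T UMI they were -0.88 for the core and primed list and -1.66 for the Nodal list.

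In the BMP list 5 of 14 were lower and 2 higher (median -0.70). The lower members include Chrd and Nog, which also stand in the node list. The ligands Bmp5 and Bmp2 were 15.7-fold and 6.09-fold lower, at 27.4 and 35.9 CPM in Epi-CE-T. Both were under 10 CPM in Epi-CE as well. Msx1, a BMP target of mesoderm and dorsal neural tube, went the other way at 24.4 against 0.756 CPM, 32.3-fold higher (22.9 to 47.2), and the target Id2 was 3.70-fold higher (6.02-fold among cells with a T UMI).

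WNT target genes split, with more higher than lower: 7 of 13 were higher and 4 lower, with a median of 1.0. With no minimum of UMIs 7 of 15 were higher and 5 lower (median 0.29). Over all barcodes 6 of 13 were higher and 5 lower (median 0.88). Lef1, the transcriptional partner of beta-catenin and itself a target, stood at 90.6 CPM in Epi-NMP and 11.7 in Epi-CE-T (7.74-fold higher, 7.02 to 8.53). The feedback inhibitors Notum and Axin2 were 9.68-fold and 3.29-fold higher, and the target Sp5 was 2.65-fold higher. Dkk1, a secreted WNT inhibitor of the organizer, was 7.26-fold lower (3.59 against 26.1 CPM). The ligand Wnt6 was 11-fold higher. In the FGF and ERK feedback list 4 of 12 were higher and 1 lower (median 0.61). The feedback genes Spry4 and Il17rd were 3.88-fold and 3.35-fold higher, while the ERK phosphatase Dusp4 was 6.75-fold lower (31.5 against 212.5 CPM).

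Glycolysis and hypoxia genes were lower in most members. All 19 members were measured, and 12 were lower and none higher, with a median of -1.27. The glycolytic enzymes Aldoc and Pfkp led the list. Aldoc, on chromosome 11 (78322968 to 78327781, plus strand), stood at 173.4 CPM in Epi-CE-T and 6.42 in Epi-NMP, 27-fold lower (22.9 to 32.1), with a UMI in 67.2% and 4.41% of cells. Pfkp was 21.9-fold lower (74.6 to 3.41 CPM). Bnip3, a mitophagy gene induced by low oxygen, was 6.05-fold lower (343.7 to 56.8 CPM), and the glycolytic enzyme gene Aldoa was 2.76-fold lower (3513 to 1272 CPM). Glucose transporters differed in size: Slc2a3 was 2.51-fold lower (1.85-fold among cells with a T UMI, not called) and Slc2a1 1.12-fold lower, not called. Eno1 also stood nearly level, at 2129.98 and 1928 CPM. Outside the list, Egln3, an oxygen-sensing prolyl hydroxylase, was 10.9-fold lower (7.22-fold among cells with a T UMI). P4ha2, a collagen prolyl hydroxylase, was 15.8-fold lower. In Epi-CE the levels of Aldoc (126.4 CPM) and Bnip3 (231.6 CPM) were nearer those of Epi-CE-T.

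Because these genes were lower together, the 250 bases upstream of their start sites were searched for ACGTG, one form of the core that hypoxia-inducible factors are known to bind. Both strands were searched in the RefSeq promoter table (GRCm38.p6). The motif was present in 9 of 18 matched members of the list (50%), in 25.5% of the 9384 matched tested genes and in 18.5% of all 27025 genes of the table. It was in 23.0% of the matched genes that were lower and 26.4% of those that were higher. The search covered all 37 lists, and some short ones reached like shares. ACGTG was in 3 of 6 motile cilium genes (50%), 2 of 3 genes of Hox groups 10 to 13 (66.7%) and 3 of 7 progenitor growth genes (42.9%). Most other lists had smaller shares, and no share was tested against another. The windows of Aldoc and Pfkp, the members with the greatest difference, held no match. Windows with matches are shown, in the direction of transcription with the motif in capitals, for a pair of list members and for Egln3. They are Bnip3 (chr7:138909507-138909756, minus strand), Egln3 (chr12:54203875-54204124, minus strand) and Pgk1 (chrX:106186850-106187099, plus strand), the last encoding a glycolytic kinase that was 2.00-fold lower, a call that TMM scaling (1.93-fold), DESeq2 size factors (1.92-fold) and cells with a T UMI (1.95-fold) end. In Bnip3 the 2 matches overlap on opposite strands. A match is a description of the sequence, not a shown binding site.
Bnip3: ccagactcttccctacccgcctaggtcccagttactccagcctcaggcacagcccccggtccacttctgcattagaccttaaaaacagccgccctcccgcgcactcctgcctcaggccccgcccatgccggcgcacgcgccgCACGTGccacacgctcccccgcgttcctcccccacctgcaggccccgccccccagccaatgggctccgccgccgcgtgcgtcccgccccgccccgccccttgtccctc
Egln3: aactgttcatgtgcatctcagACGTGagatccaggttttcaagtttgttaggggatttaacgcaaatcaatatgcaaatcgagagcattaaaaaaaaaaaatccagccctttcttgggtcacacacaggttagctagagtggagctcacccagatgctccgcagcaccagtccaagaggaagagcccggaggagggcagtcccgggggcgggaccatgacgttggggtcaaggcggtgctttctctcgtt
Pgk1: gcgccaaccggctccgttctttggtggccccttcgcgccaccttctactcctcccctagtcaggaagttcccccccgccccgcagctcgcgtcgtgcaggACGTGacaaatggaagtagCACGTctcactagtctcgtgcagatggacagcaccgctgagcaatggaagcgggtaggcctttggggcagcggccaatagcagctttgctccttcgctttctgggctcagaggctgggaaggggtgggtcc

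Other motifs were also searched in all 37 lists, and were found in 0 to 2 members of the groups chosen for mention here. The forkhead motif TGTTTAC was in 1 of 5 matched node and notochord genes and 2 of 7 definitive endoderm genes (2.66% of tested genes). The CDX motif TTTATGG was in 0 of 6 matched Hox genes of groups 5 to 9 and 2 of 12 caudal epiblast genes (1.83%). The TCF and LEF motif CTTTGAT was in 1 of 8 matched WNT targets and 2 of 12 caudal epiblast genes (2.72%). These windows cover promoters alone.

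Epithelial genes were lower in 9 of 12 measured members, with none higher and a median of -1.67. Krt19, a keratin of simple epithelia that also stands in the notochord list, was at 475.2 CPM in Epi-CE-T and 23.2 in Epi-NMP. It was 20.5-fold lower (18.8 to 22.4), or 13.4-fold among cells with a T UMI, and was found in 75.2% and 8.64% of cells. Its partner Krt8 was 8.04-fold lower (12.2-fold in cells of middling depth). The adhesion genes Epcam and Cdh1 were 6.28-fold and 2.78-fold lower, although Cdh1 was at 3.00 CPM in Epi-CE-T already and at 23.8 CPM in Epi-CE. The membrane-binding annexin Anxa2 was 14.3-fold lower (276.9 to 19.3 CPM). Mesenchymal genes were level on the whole, with 1 of 10 higher and 1 lower (median 0.34). Vim, the mesenchymal filament protein, was the lower one at 2.30-fold, and Snai1, a repressor of epithelial genes, the higher one at 2.09-fold. Snai1 was not called with equal cell weights (1.88-fold), over all barcodes (1.98-fold) or among cells with a T UMI (1.78-fold).

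Basement membrane genes stood at a median of -0.31, with 1 of 12 higher (Lama1, a laminin chain, 2.75-fold; 1.66-fold among cells with a T UMI) and 1 lower (Sparc, a matrix glycoprotein, 2.70-fold). For basement membrane genes the higher count was near the 6.84% of all tested genes, and the lower count was under their 17.8%. Of 14 axon guidance genes 5 were higher and 3 lower (median 0.40), beside 6.84% and 17.8% of all tested genes. The lower count was thus near the share over all tested genes. The lower 3 were the midline repellents Slit1, Slit2 and Slit3. Slit2 stood at 105.4 CPM in Epi-CE-T and 34.5 in Epi-NMP (3.05-fold lower), and Slit3 was 4.71-fold lower.

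Most cell cycle genes differed by less than 2-fold. Of 20 S phase genes 5 were higher and none lower (median 0.61), led by the thymidylate synthase gene Tyms at 2.56-fold. Of 20 G2 and M phase genes 1 was lower and none higher (median -0.20). It was Hmmr, a spindle-associated protein, at 2.36-fold lower. Progenitor growth genes of the heterochronic set were higher in 5 of 9 and lower in none (median 1.15). Hmga2, a chromatin factor of early progenitors, stood at 266.9 CPM against 55.8 (4.79-fold higher), the RNA-binding protein gene Lin28a was 3.67-fold higher, and Myc 2.93-fold (1.98-fold among cells with a T UMI, not called).

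Stress genes were called in both directions. Immediate early genes, which can mark dissociation, were higher in 1 of 12 and lower in 3 (8.33% and 25%; median -0.07), beside 6.84% and 17.8% of all tested genes. Atf3 was the higher one at 3.25-fold, or 6.46-fold among cells with a T UMI. Amino acid stress genes had 2 of 13 higher and 2 lower (median 0.00), among them Ddit3, 4.67-fold lower. Their lower count was near the 17.8% of all tested genes. In the p53 list 3 of 9 were lower (median -0.79), including the cell cycle inhibitor Cdkn1a, 2.34-fold lower (348.2 against 813.5 CPM). Imprinted genes had 2 of 14 higher and 3 lower (median 0.00), beside 6.84% and 17.8% of all tested genes. The lower count was thus near the share over all tested genes. H19, a maternally expressed RNA, had 637 UMIs in Epi-CE-T and 2 in Epi-NMP, a ratio of 158-fold lower (43.4 to 1304). It was at least 64.1-fold lower among cells with a T UMI. Epi-CE was as low as Epi-NMP for H19, at 0.0341 CPM.

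Markers of trophoblast, lateral plate and neural crest had low summed levels, while fibroblast and smooth muscle genes summed higher. In Epi-NMP the latter sum was like that of the node and notochord regulators (70.8 CPM). Of 7 measured fibroblast and smooth muscle genes 4 were lower and 1 higher, and the list summed to 127.6 CPM in Epi-CE-T and 71.3 in Epi-NMP. Of 5 trophoblast genes 2 were lower and 1 higher, with sums of 20.3 and 7.55 CPM. Lateral plate genes summed to 25.7 and 20.1 CPM, and neural crest genes to 9.96 and 10.3 CPM. Col1a1, a fibroblast collagen, was 17.5-fold lower from 7.09 CPM (7.49-fold among cells with a T UMI, 47.1-fold in cells of middling depth, on 3 Epi-NMP UMIs, with an interval from 15.9 to 229.7). Acta2, smooth muscle actin, was 5.24-fold higher at 15.5 CPM, and 33.4-fold higher among cells with a T UMI. Lmo2, a blood and endothelial cofactor, stood above Col1a1 and Acta2. It stood at 135.6 CPM in Epi-NMP and 18.6 in Epi-CE-T (7.29-fold higher, 6.75 to 7.88), found in 36.2% and 8.96% of cells, and made up most of the blood and endothelium list, which summed to 22.5 CPM in Epi-CE-T and 141.0 in Epi-NMP. The defining genes Kdr, Tal1, Gata1, Pecam1, Cdh5 and Hbb-bh1 were under the minimum of 50 summed UMIs. Of naive pluripotency genes 3 of 13 were measured and none was called, with Klf4, Klf2 and Klf5 all under 20 CPM.

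**Figure D3:**
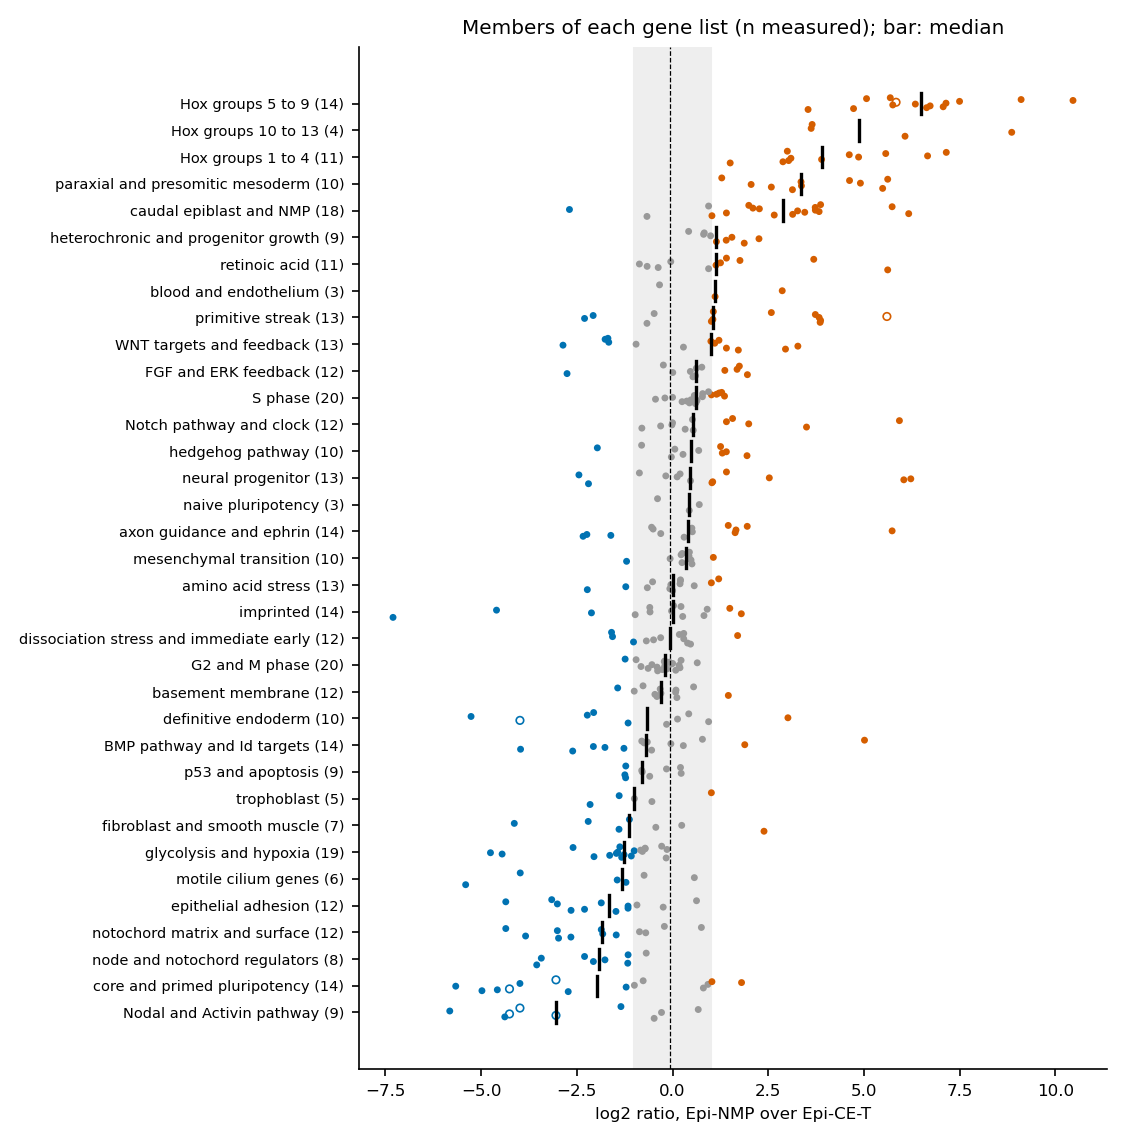
Log2 ratio of Epi-NMP over Epi-CE-T (x) for each measured member of each gene list, with the number measured in parentheses, the black bar at the list's median and the dashed line at the median of all tested genes (-0.08). Orange and blue points are at least 2-fold higher or lower, the grey band holds smaller ratios, open points are bounds (0 UMIs in one library), and lists with 2 measured members are left out; Hox lists lie furthest right and the Nodal list furthest left.

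Per cell, marker genes were counted after thinning, and a cell with at least 3 detected genes of a list is called bearing that list, a range of a count and not a cell type. Of Epi-CE-T cells 24.8% (523 of 2109; 23.0 to 26.7) bore node and notochord regulators, against 4.68% of Epi-NMP cells (52 of 1111; 3.52 to 6.09). The Epi-CE share was 4.53%, like that of Epi-NMP. Genes of Hox groups 5 to 13 were borne by 54.8% of Epi-NMP cells (609 cells; 51.8 to 57.8) and 0.427% of Epi-CE-T cells (9 cells), with Epi-CE at 0.251%. In Epi-CE-T 2 cells bore both lists, and in Epi-NMP 7 cells did. Paraxial mesoderm genes were borne by 7.83% of Epi-NMP and 0.237% of Epi-CE-T cells, and neural genes by 18.2% and 4.46%. The cutoff matters for the midline share: in Epi-CE-T 560 cells stood at 2 midline genes and 365 at 3, and in Epi-NMP 76 and 38. With a minimum of 2 genes the midline shares were 51.4% and 11.5%, and with 4 genes 7.49% and 1.26%.

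T and Sox2 were co-detected in 21.5% of Epi-NMP cells (239 of 1111; 19.1 to 24.0) and 14.6% of Epi-CE-T cells (308 of 2109; 13.1 to 16.2). T without Sox2 was the commonest state in Epi-CE-T (59.6% against 31.2%), and Sox2 without T was commoner in Epi-NMP (21.5% against 9.86%). Any T was detected in 52.7% of Epi-NMP and 74.2% of Epi-CE-T cells, and any Sox2 in 43.0% and 24.5%. Whether co-detection differs from what these rates alone would give was not tested. The co-detecting cells carried other genes in the 2 libraries. In those of Epi-NMP Cdx2 was detected in 89.5% and Hoxb9 in 49.4%, and in those of Epi-CE-T in 2.27% and 0.974%. Shh was detected in 48.1% of the co-detecting Epi-CE-T cells and 4.60% of the Epi-NMP ones, and Pomc in 46.4% and 0.837%. Their median depths were 17462 and 19855.5 UMIs. Of 9349 genes measured in these cells 6.94% were higher in Epi-NMP and 12.7% lower. All 11 measured Hox genes of groups 5 to 9 were higher, but they passed the UMI minimum mainly through Epi-NMP, so the count supports nothing by itself. Of 8 node and notochord regulators 6 were lower.

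**Figure D4:**
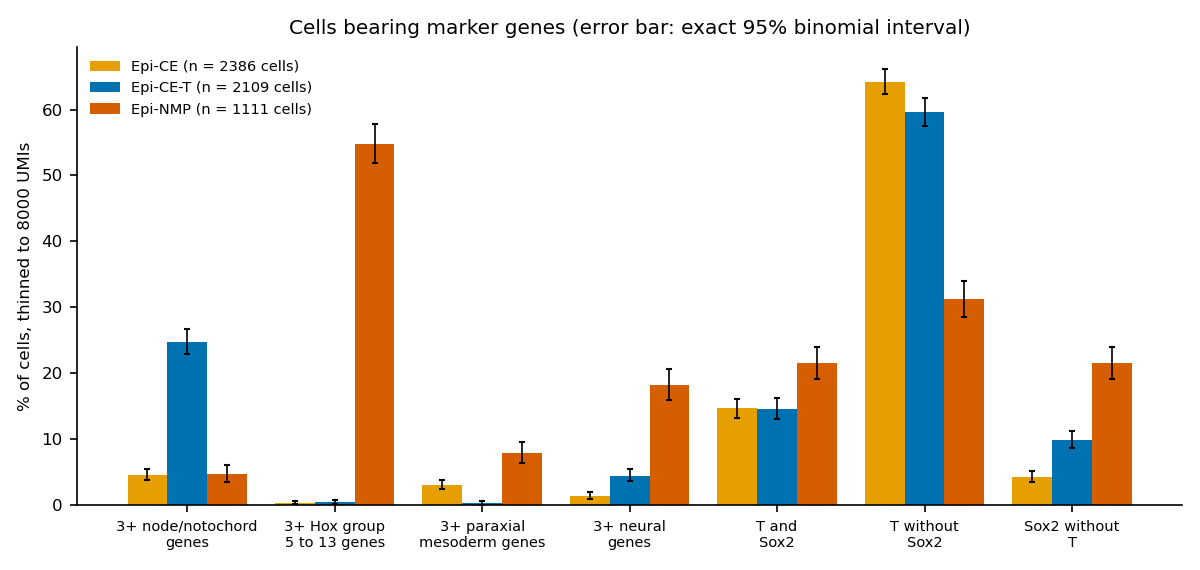
Percent of TRUE cells (y, after thinning to 8000 UMIs) in Epi-CE (yellow), Epi-CE-T (blue) and Epi-NMP (orange) that bear at least 3 genes of a list, or detect T and Sox2 together or alone, with exact 95% binomial intervals as error bars. The midline bar is tallest in Epi-CE-T (24.8%) and the Hox bar in Epi-NMP (54.8%).

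The midline-bearing cells of the 2 libraries were then compared with each other, 523 cells (median 17631 UMIs) against 52 (median 13611 UMIs). The node regulators chose these cells, so their own levels are a description: Chrd and Nog were at like levels (133.7 against 124.6 and 102.7 against 94.5 CPM in Epi-NMP against Epi-CE-T), Foxa2 was at 98.6 against 65.4 CPM and Shh at 70.2 against 164.2 CPM. Gsc had 1 UMI in the Epi-NMP cells (1.35 CPM) and stood at 14.5 CPM in the Epi-CE-T ones, 10.7-fold lower (1.90 to 427.6). Noto, a notochord homeobox factor, was 11.6-fold higher (3.57 to 36.5) on 7 and 8 UMIs. Over 9328 genes measured in these cells 5.69% were higher and 13.1% lower. T was detected in 98.1% and 95.6% of them, and its level was 1.6-fold higher in Epi-NMP (965.7 against 604.5 CPM), the reverse of the whole libraries. The median midline-bearing cell detected 0 Hox genes of groups 5 to 13 in either library, 1 paraxial gene in Epi-NMP and 0 in Epi-CE-T, and 0 neural genes in both. Hox genes of these groups were borne by 7 of the 52 cells in Epi-NMP (13.5%; 5.59 to 25.8) and 2 of the 523 in Epi-CE-T (0.382%).

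The caudal and anterior Hox difference was also present in these cells. Cdx2 stood at 183.7 CPM in midline-bearing cells of Epi-NMP and 0.716 in those of Epi-CE-T, 257-fold higher (121.2 to 650.4), with a UMI in 25 of 52 and 3 of 523 cells. Hes7 was 106-fold higher, Hoxb2 38-fold and Lef1 33.0-fold (74.3 against 2.25 CPM). Fgf8, with 22 UMIs in each library and so under the 50 used for counts, was 13.2-fold higher (6.98 to 25.0). Lmo2 was at 224.2 against 14.2 CPM (15.8-fold), above its level of 121.0 CPM in Epi-NMP cells with no midline gene. For Hoxb9 the order was the opposite: it was detected in 7.69% of the midline-bearing Epi-NMP cells (2.14 to 18.5) and 54.2% of the 732 Epi-NMP cells with no midline gene (50.5 to 57.9; median 21299.5 UMIs). Hoxc8 had 2 UMIs in the midline-bearing cells of Epi-NMP and none in those of Epi-CE-T. The part of free RNA from other cells in these levels was not tested.

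Metabolic and epithelial genes differed in these cells as well. Glycolysis and hypoxia genes were lower in 15 of 19 (median -1.59), and epithelial genes in 5 of 7 (median -2.29). Of all genes measured in these cells 13.1% were lower. With 523 cells against 52, a gene low in Epi-NMP could reach the UMI minimum through Epi-CE-T alone. The epithelial count therefore supports little by itself, while all 19 glycolysis and hypoxia genes were measured. Bnip3 was 5.34-fold lower (77.0 against 411.0 CPM) and Krt19 8.85-fold lower (79.7 against 705.1 CPM). Aldoc had 1 UMI in the 52 Epi-NMP cells and stood at 179.1 CPM in the Epi-CE-T ones. Pomc stood at 2045 CPM in midline-bearing Epi-CE-T cells, detected in 47.6% of them, and had 2 UMIs in those of Epi-NMP (757-fold lower, 209.5 to 6251). In Epi-CE-T cells with no midline gene Pomc was at 309.5 CPM and detected in 22.4%. Lmx1a was 3.78-fold lower (31.1 against 117.4 CPM), a smaller gap than over the whole libraries. With 52 cells on one side, no Hox gene of groups 5 to 9 reached the minimum of 50 summed UMIs used for the counts here.

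**Figure D5:**
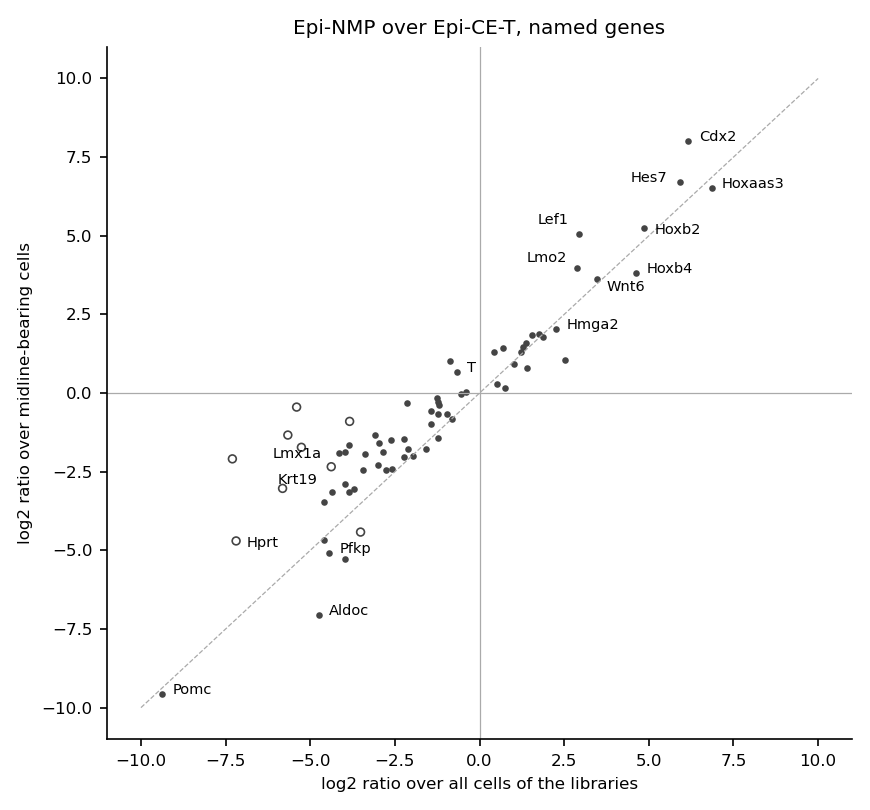
Log2 ratio of Epi-NMP over Epi-CE-T for 72 named genes, over all TRUE cells (x) and over midline-bearing cells (y, 523 and 52 cells, which are part of the x values); open points are bounds (0 UMIs in one library) and the dashed line marks equal ratios. Cdx2, Hes7, Hoxaas3 and Hoxb2 are far higher and Pomc, Aldoc and Pfkp far lower on both axes, while T is lower over all cells and higher in midline-bearing ones.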

How the data were processed

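Single-cell RNA was measured in 4 mouse libraries, 1 per group, grouped by sample title. Each 10x Chromium run took 8700 cells, per the labels' protocols. The submitters' processing notes name Cell Ranger 1.3.1, Seurat 2.0 and build mm10. Alignment settings, annotation, strand use and the meaning of the TRUE mark are not given in the sources used here. For 27998 genes the authors deposited UMI counts in whole numbers, with no normalization. No reporter sequence was analysed here.

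TRUE barcodes were summed per library and divided by the library total to give CPM. Totals were 22261452 UMIs in Epi-NMP and 44990488 in Epi-CE-T, so 3 UMIs equal 0.135 and 0.0667 CPM. A gene with no UMI in one library was set to that floor of 3 UMIs per library, and its ratio is a bound. With 1 library a side no test across samples could be made and no p-value was computed. Intervals (95%) are exact Poisson for levels, conditional binomial for ratios and Clopper-Pearson for shares. Thinning drew UMIs without replacement with seed 1. A tested gene had 50 or more summed UMIs.

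The 37 gene lists (453 genes), the rule for named genes and the comparison were chosen with earlier results of these data known. Named genes are the 15 highest and 15 lowest ratios of 3074 ranked genes (200 or more summed UMIs, 50 CPM in either library, ribosomal, mitochondrial and predicted genes left out), the 3 largest ratios in each list, and T, Sox2, Nkx1-2 and Cdx2. Other list members named were chosen after their values were seen, and a few genes are not reported here. Alternatives were TMM factors (edgeR 4.0.16), size factors (DESeq2 1.42.0), totals without ribosomal and mitochondrial genes, equal cell weights, all barcodes, cells of the 10th to 90th UMI percentile, cells with a T UMI, other minimums, other thinning and other cutoffs. The ratio script was tested on simulated counts. Gene coordinates are from GENCODE M21 (GRCm38, also called mm10) and promoter windows from RefSeq (GRCm38.p6). Python 3.11.15, numpy 2.4.6, scipy 1.17.1, pandas 2.3.3 and R 4.3.3 were used.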

Additional observations from a re-analysis of the deposited data

How the results depend on the processing

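The count of genes higher and lower was 849 and 2206, and ran from 783 to 963 and from 1861 to 2325 over the 3 scalings, equal cell weights, all barcodes, cells of middling depth and cells with a T UMI. No scaling shifted the median of all genes by more than 0.1. With no minimum of UMIs 2019 genes were higher and 3188 lower, with a minimum of 200 UMIs 611 and 1432, and at 1.5-fold 2126 and 3515. The core and primed median of -1.97 became -0.95 with equal cell weights, -1.17 in cells of middling depth (10th to 90th UMI percentile), -0.88 in cells with a T UMI and -1.21 with no minimum. The Nodal median of -3.04 became -2.23, -2.31, -1.66 and -1.70 in the same order, -4.05 over all barcodes and -0.91 with a minimum of 200 UMIs. The median of Hox groups 10 to 13 (4.86) became 3.62 with no minimum and 7.47 with 200 UMIs. The cause of these moves was not tested, apart from the changed set of genes that a minimum brings.

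Shares of cells depend on depth and cutoff. In Epi-CE-T, unthinned cells gave 53.6% bearing midline genes, 0.853% Hox genes, 0.474% both and 30.5% with T and Sox2, and cells thinned to 4000 UMIs gave 8.16%, 0.142%, 0 and 7.25%. In Epi-NMP the unthinned shares were 10.8%, 63.9%, 3.42% and 37.6%, and those at 4000 UMIs 0.99%, 35.6%, 0 and 9.63%. A minimum of 2 genes gave 51.4% midline in Epi-CE-T, and 11.5% midline, 62.0% Hox and 4.23% both in Epi-NMP. A minimum of 4 genes gave 7.49%, 0.190% and 0 in Epi-CE-T and 1.26%, 43.7% and 0.0900% in Epi-NMP. The Epi-CE-T share with both was 0 in cells of middling depth. Of the called genes named in the report, all run under each scaling and choice of cells, Sox1 and Nkx6-2 changed sign, to log2 ratios of 0.13 and 0.52 among cells with a T UMI. Other lost calls stand beside their genes. Genes under about 1 CPM rest on few UMIs, and a count of 0 allows up to 0.135 CPM in Epi-NMP. No paired analysis was possible because each group has 1 library. No library could be left out for the same reason.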
